A study of Mus musculus with 10 samples.

Results

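Glycolysis and the transcriptional response to low oxygen were examined in mouse mammary carcinoma cells in which 1 of 2 secreted protease inhibitors, Serpine2 or Slpi, had been lowered with short hairpin RNAs. The genes described are 37 of the 23479 entries of the deposited table. They are Hif1a itself, 19 enzymes of glycolysis and lactate formation, and 17 other genes known as targets of HIF-1, and they were taken by name, with earlier results of these data known. The cells were clone 4T1-T, a population grown out of a single cell of the 4T1 line, so that every group descends from 1 clone. All groups had been infected with a hairpin. The hairpins were shSerpine2-1 and shSerpine2-2 against Serpine2, shSlpi-1 and shSlpi-2 against Slpi, and shRenilla, against Renilla luciferase, as the control. Each of the 5 groups had 2 libraries, A and B. The labels name no oxygen level. Serpine2 and Slpi inhibit serine proteases, and the series is about vascular mimicry, in which tumour cells form channels that carry blood.

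HIF-1 is a transcription factor made of an oxygen-sensitive subunit, HIF-1 alpha (gene Hif1a), and a stable partner. When oxygen is present, prolyl hydroxylases such as those encoded by Egln1 and Egln3 mark HIF-1 alpha for destruction. When oxygen is short, the protein accumulates and raises genes for glucose uptake, glycolysis, pH control, mitochondrial turnover and collagen processing. Since HIF-1 alpha is controlled largely as a protein, the level of the Hif1a transcript does not give HIF-1 activity. Tumour cells also often run glycolysis to lactate while oxygen is present, and Myc and growth signals can raise the same enzymes.

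The recovered depth was 15877431 to 24026620 reads per library. Values below are normalized reads, which are read counts brought to a common library size by the authors' scaling, and per-library values are given in the order A, B. Fold changes are on the log2 scale, and where 2 stand together without a label, the first is with Serpine2 lowered and the second with Slpi lowered. Where a library shows 0, up to 3 reads could have been missed (2.30 to 3.48 normalized reads), counting error only. The labels do not state whether the A and B libraries are separate cultures. The p-values therefore reflect the scatter of these libraries alone, and it may be technical. Serpine2 had 128 and 139 with shSerpine2-1, 489 and 514 with shSerpine2-2, 1342 and 1331 with shSlpi-1 and 1553 and 1731 with shSlpi-2, against 3256 and 3145 in shRenilla. Slpi had 326 and 414 with shSerpine2-1, 1111 and 1218 with shSerpine2-2, 145 and 147 with shSlpi-1 and 60.9 and 75.8 with shSlpi-2, against 1189 and 1313 in shRenilla. The targeted transcript was thus lower in each labelled group. Slpi was also lower with shSerpine2-1, and Serpine2 with both Slpi hairpins. The 2 libraries of shSlpi-2 differed from each other most (chi-square per degree of freedom 10.9, against 1.55 to 2.76 elsewhere). Rn45s, the ribosomal RNA precursor, took 6.88% and 6.91% of reads in shSlpi-2, 0.881% to 1.96% in the other knockdown libraries and 1.00% and 1.21% in shRenilla. Genes with any read numbered 19938 and 20253 in shSlpi-2, 15389 to 18366 in the other knockdown libraries and 15887 and 16040 in shRenilla. All 6 epithelial markers were present, and their summed level was 25190 to 31090 in the knockdown libraries and 21140 to 21760 in shRenilla. Of 6 endothelial, 7 leukocyte and 6 fibroblast markers, 1 each reached a mean of 10 normalized reads. These were Tie1, Cd68 and Pdgfra, and the summed levels in knockdown and shRenilla libraries were 37.8 to 137 and 30.6 to 51.8 for endothelium, 137 to 180 and 145 to 146 for leukocytes, and 463 to 775 and 888 to 905 for fibroblasts. None of these markers was at 0 in every library, while Emcn, Cd3e and Lum were among those at 0 in at least 5 of 10. In bulk RNA, fewer cells of a type and less RNA per cell cannot be told apart. The part of these markers, of Rn45s and of the number of genes with reads in the results was not tested.

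Most changes among the other HIF-1 targets were falls, and most among the glycolytic enzymes were rises. With Serpine2 lowered, 8 of the 16 tested targets fell and 1 rose, while 4 of the 19 enzymes rose and 2 fell. With Slpi lowered, 10 of 16 targets fell and 2 rose, while 5 of 19 enzymes rose and 2 fell. The median log2 fold change of the targets was -0.20 with Serpine2 lowered and -0.21 with Slpi lowered. For the enzymes it was 0.10 and 0.06, beside -0.0014 and -0.0055 for all genes tested. Here a gene is said to have risen, fallen or changed when the limma p-value, adjusted over all 12299 genes tested with the Benjamini-Hochberg method, was under 0.05. Of all genes tested, 10.7% rose and 10.8% fell (21.5% in all) with Serpine2 lowered, and 16.5% rose and 18.3% fell (34.8% in all) with Slpi lowered. Over the 36 tested members this came to 5 up and 10 down with Serpine2 lowered and 7 up and 13 down with Slpi lowered. Both comparisons use the same shRenilla libraries, so that a deviation of those 2 libraries enters both. The changes were small, and the largest among the members, averaged over the hairpins of a target, was -0.73 on the log2 scale, for Car9. Leaving out shRenilla A or B kept 10 or 8 of the 15 calls with Serpine2 lowered and 15 or 13 of the 20 with Slpi lowered. The rises were the less stable part without shRenilla B. With Serpine2 lowered they numbered 3 without shRenilla A, shSerpine2-1 B or shSerpine2-2 A and 1 without shRenilla B, and with Slpi lowered 3 without shRenilla B. The shSlpi-2 libraries enter the Serpine2 comparison through the shared spread. Without both of them 7 enzymes instead of 4 rose and 10 targets instead of 8 fell. The counts over all genes tested went up as well, from 1311 to 1969 rises and from 1332 to 1945 falls.

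**Figure D1:**
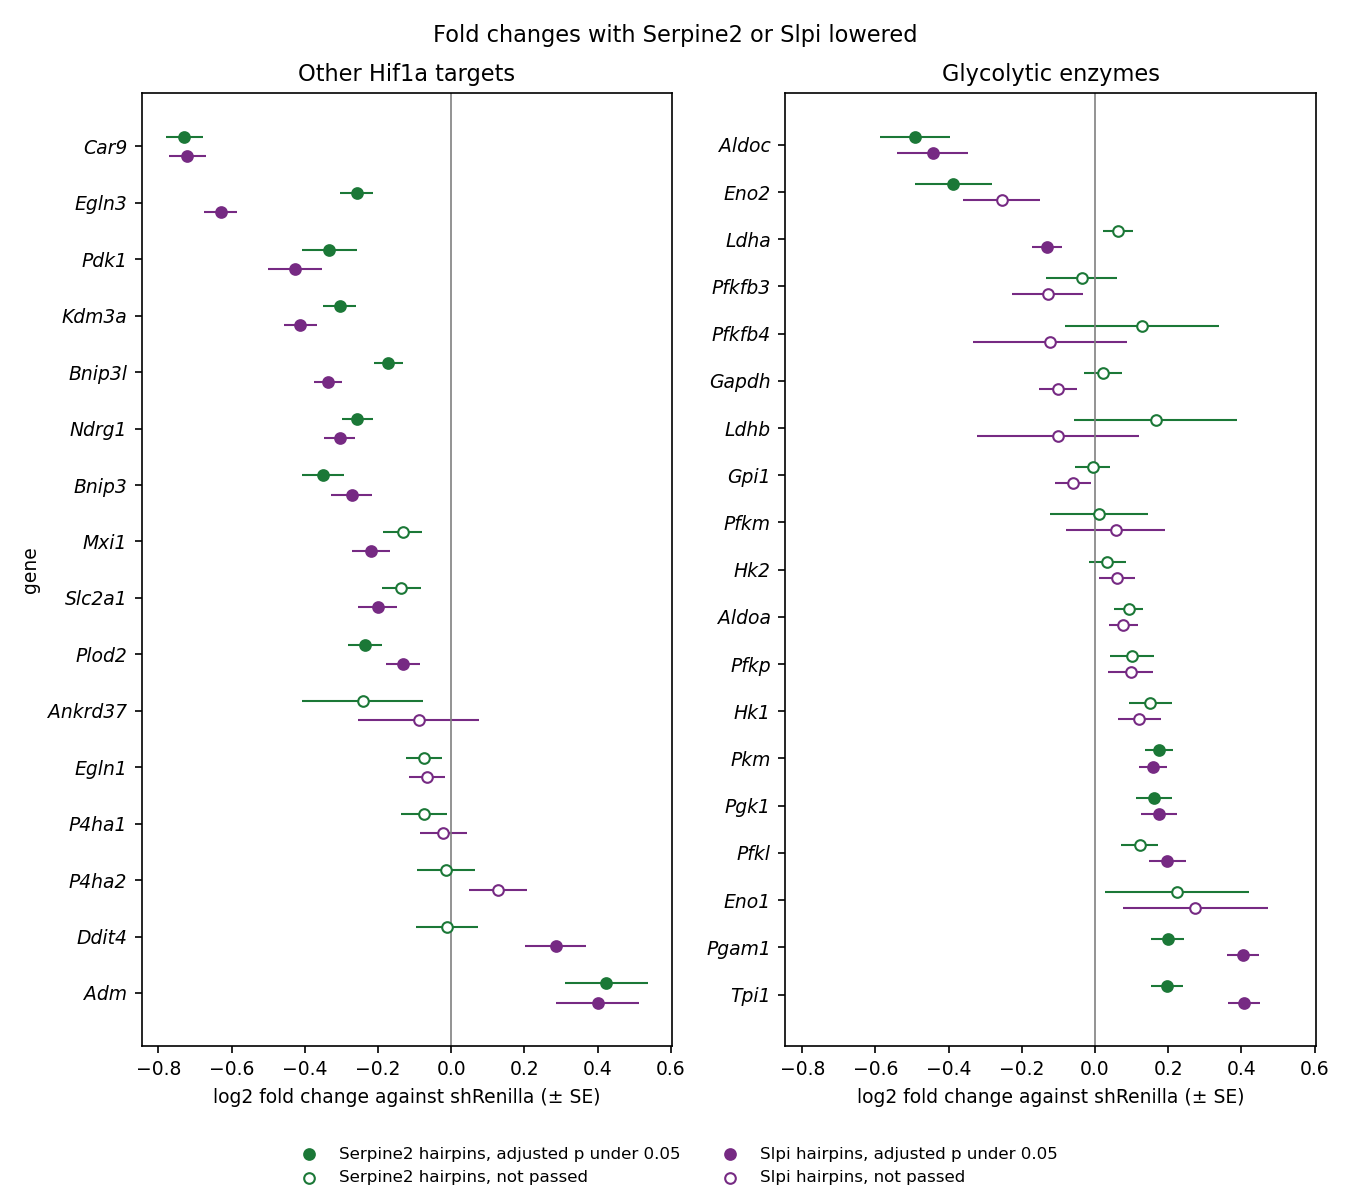
Log2 fold change (± SE) against shRenilla, on the horizontal axis, of the 16 tested HIF-1 targets (left) and 19 glycolytic enzymes (right), with Serpine2 hairpins in green and Slpi hairpins in purple. Filled points have an adjusted p under 0.05. In both comparisons Car9, Aldoc and Eno2 have negative values and Adm, Tpi1 and Pgam1 positive ones. The Eno2 point with Slpi lowered is not filled.

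Library by library, the order of the 2 class medians was the same, but a rise of the enzymes was not seen with every hairpin. The median log2 difference of the targets from the shRenilla mean was -0.26 and -0.25 in the shSerpine2-1 libraries, -0.12 and -0.15 in shSerpine2-2, -0.11 and -0.09 in shSlpi-1, and -0.39 and -0.47 in shSlpi-2. The enzymes had medians of 0.01 and 0.07 in shSerpine2-1, 0.16 and 0.11 in shSerpine2-2, 0.05 and 0.03 in shSlpi-1, and 0.07 and 0.09 in shSlpi-2. In the shRenilla libraries, which are set against their own mean, the medians of both classes lay within 0.02 of 0. The mean over the enzymes, instead of the median, was -0.06 and 0.01 in shSerpine2-1 and 0.04 and -0.04 in shRenilla. With shSerpine2-1 alone 0 enzymes rose and 2 fell, beside 5.09% and 5.38% of all genes tested. The target median was thus below the enzyme median in all 8 knockdown libraries, and it was lowest in shSlpi-2. Without both shSlpi-2 libraries the median of the targets with Slpi lowered was -0.08, and without both shSerpine2-1 libraries that with Serpine2 lowered was -0.12. No test was made of the 2 medians. Without regard to the test, all 4 Serpine2 libraries lay above both shRenilla libraries for 8 of 36 members and below them for 13, beside 18.8% and 18.9% of all genes. All 4 Slpi libraries lay above them for 7 and below them for 10, beside 19.5% and 20.6%. The calls rest on the spread between libraries. With the hairpin as the unit instead, 2 hairpins against 1, limma called 0 of 12299 genes in either comparison. An unadjusted p under 0.05 was then reached by 499 genes, 2 of them members, with Serpine2 lowered, and by 1281 genes, 6 of them members, with Slpi lowered.

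**Figure D2:**
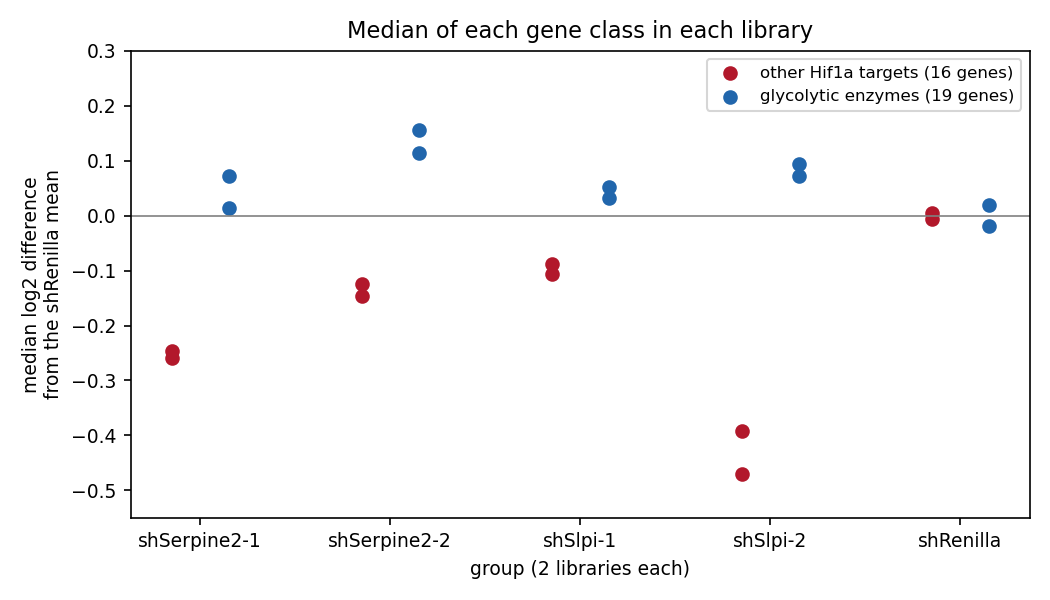
Median log2 difference from the shRenilla mean (vertical axis) of 16 HIF-1 targets (red) and 19 glycolytic enzymes (blue) in each of the 10 libraries, by group. The targets lie below the enzymes in all 8 knockdown libraries, lowest in the 2 shSlpi-2 libraries at -0.39 and -0.47.

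HIF-1 binds DNA at a short core, and the promoters of the members were searched for its 2 usual forms, ACGTG and GCGTG, on both strands. The windows ran from 250 bases before to 50 after each annotated start (RefSeq, GRCm38.p6), and 34 of the 37 members had an entry. At least 1 core was found for 14 of 14 targets, for 16 of 19 enzymes and for Hif1a. Over all members this is 91.2%, beside 68.4% of 9062 genes with a mean of at least 10 normalized reads and 46.7% of all 27025 genes in the promoter table. A gene with several windows counted when any of them held a core, and the palindrome CACGTG, which also is the usual Myc site, counts on both strands. A match describes the letters of the window and is not evidence of binding. Bnip3l, Plod2 and Ndrg1 are named only. Shown here are the windows of Car9, Egln3 and Kdm3a, the 3 members that fell with each of the 4 hairpins, of Aldoc, the enzyme with the largest fall, and of Tpi1 and Pgam1, the enzymes with the largest rises. Each is written 5′ to 3′ along the gene, and capitals mark a core, read CACGT or CACGC where it lies on the opposite strand.
Car9 (chr4:43506776-43507075, plus strand): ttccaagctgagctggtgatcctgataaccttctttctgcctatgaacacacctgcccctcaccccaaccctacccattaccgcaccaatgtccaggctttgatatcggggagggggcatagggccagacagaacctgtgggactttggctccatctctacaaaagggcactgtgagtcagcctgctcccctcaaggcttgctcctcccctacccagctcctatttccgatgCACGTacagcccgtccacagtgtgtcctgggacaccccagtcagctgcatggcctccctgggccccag
Egln3 (chr12:54203825-54204124, minus strand): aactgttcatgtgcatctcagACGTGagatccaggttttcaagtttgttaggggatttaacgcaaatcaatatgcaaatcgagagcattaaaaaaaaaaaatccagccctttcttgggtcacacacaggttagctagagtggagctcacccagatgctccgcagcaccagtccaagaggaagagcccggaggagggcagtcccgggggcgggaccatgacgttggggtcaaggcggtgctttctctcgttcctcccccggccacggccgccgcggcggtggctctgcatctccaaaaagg
Kdm3a (chr6:71632868-71633167, minus strand): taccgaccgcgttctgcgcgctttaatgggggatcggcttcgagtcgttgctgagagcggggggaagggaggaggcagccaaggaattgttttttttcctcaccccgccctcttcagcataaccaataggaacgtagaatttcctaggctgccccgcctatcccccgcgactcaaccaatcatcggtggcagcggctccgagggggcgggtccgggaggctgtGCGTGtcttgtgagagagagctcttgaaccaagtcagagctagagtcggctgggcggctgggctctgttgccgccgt
Aldoc (chr11:78322823-78323122, plus strand): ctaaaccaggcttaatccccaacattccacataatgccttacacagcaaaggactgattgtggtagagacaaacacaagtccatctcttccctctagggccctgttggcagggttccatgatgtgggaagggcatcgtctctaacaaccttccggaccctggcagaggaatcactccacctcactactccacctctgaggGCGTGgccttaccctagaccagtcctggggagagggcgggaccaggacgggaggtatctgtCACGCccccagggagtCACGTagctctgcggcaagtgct
Tpi1 (chr6:124814109-124814408, minus strand): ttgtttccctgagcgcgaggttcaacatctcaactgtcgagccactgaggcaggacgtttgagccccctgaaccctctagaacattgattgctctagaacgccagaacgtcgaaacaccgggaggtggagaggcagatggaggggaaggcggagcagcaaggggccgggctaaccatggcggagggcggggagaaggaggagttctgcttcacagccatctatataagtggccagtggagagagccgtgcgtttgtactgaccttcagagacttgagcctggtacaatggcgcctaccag
Pgam1 (chr19:41911621-41911920, plus strand): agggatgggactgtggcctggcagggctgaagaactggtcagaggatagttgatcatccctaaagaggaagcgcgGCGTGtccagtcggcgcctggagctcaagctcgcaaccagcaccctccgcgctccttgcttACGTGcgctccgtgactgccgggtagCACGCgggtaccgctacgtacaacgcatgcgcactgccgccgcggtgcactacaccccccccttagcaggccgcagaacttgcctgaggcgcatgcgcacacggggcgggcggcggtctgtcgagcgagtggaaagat

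With the first base of the transcript as position 1 and no position 0, the single core of Car9 starts at -18, that of Kdm3a at -27 and that of Egln3 at -229. The Aldoc window shown has 3 cores, starting at -50, 12 and 28, and Pgam1 has 3, starting at -175, -114 and -88. The Pgam1 positions hold for the RefSeq start only. In GENCODE M21 the gene starts at 41911923, past the end of that window at 41911920. The Tpi1 window holds none. A second annotated start of Aldoc has 1 core, at -39, and the 2 other starts of Kdm3a have none. Genes that fell and genes that rose thus both had windows with cores.

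Hif1a itself fell with Slpi lowered. The gene lies at chr12:73901375-73947530 (plus strand) (GRCm38). It had 7834 and 7961 with shSerpine2-1, 7912 and 7682 with shSerpine2-2, 6934 and 7104 with shSlpi-1 and 6655 and 6013 with shSlpi-2, against 8462 and 8450.0 in shRenilla. All 8 knockdown libraries were below both shRenilla libraries, and the shSlpi-2 libraries were the lowest. With Slpi lowered it changed by -0.34 on the log2 scale (SE 0.04, limma adjusted p = 1.85e-05). With Serpine2 lowered it was -0.11 (SE 0.04, limma adjusted p = 0.0898), which did not pass, although it did with scaling to the library total (adjusted p = 0.043) and in a fit of only the 3 groups compared (adjusted p = 0.00397). The difference between the knockdowns was 0.24 (SE 0.04, limma adjusted p = 0.000338), with all 4 Serpine2 libraries above all 4 Slpi libraries.

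Of the 2 prolyl hydroxylase genes, Egln3 fell in both comparisons and Egln1 passed in neither. The difference between the 2 genes was not tested. Egln3 encodes PHD3, a prolyl hydroxylase whose gene is itself raised by HIF-1, and lies at chr12:54178981-54203860 (minus strand). It had 2545 and 2514 with shSerpine2-1, 2615 and 2652 with shSerpine2-2, 2464 and 2558 with shSlpi-1 and 1645 and 1526 with shSlpi-2, against 3050.0 and 3124 in shRenilla. No knockdown library reached the shRenilla range, and shSlpi-2 stood well below the rest. Egln3 fell with Serpine2 lowered (-0.26, SE 0.05, limma adjusted p = 0.000964) and with Slpi lowered (-0.63, SE 0.05, adjusted p = 6.3e-08). The difference of 0.37 between the knockdowns (adjusted p = 6.65e-06) came to 0.04 (adjusted p = 0.507) without the shSlpi-2 libraries. Egln1 encodes PHD2, the main hydroxylase of HIF-1 alpha in most cells, and ranged from 2140.0 to 2379.5 in the knockdown libraries, against 2373 and 2389 in shRenilla. Its log2 fold changes were -0.07 (95% interval -0.18 to 0.03) and -0.07 (-0.17 to 0.04), and neither passed the test, although the second did without shSlpi-2 B (-0.11, adjusted p = 0.0465). Per kb of exon, Egln1 made up 51.3% ± 3.20 of the summed level of the 2 genes in shSlpi-2 and 36.4% ± 0.279 in shRenilla (SD, n = 2). The first share is that of shSlpi-2 and does not stand for the other hairpins. Egln3 averaged 1586 in shSlpi-2, but 2529, 2633 and 2511 in shSerpine2-1, shSerpine2-2 and shSlpi-1.

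The strongest fall was that of Car9, a cell-surface carbonic anhydrase that helps tumour cells export acid and is a widely used marker of hypoxia. Car9 lies at chr4:43506966-43513729 (plus strand). It had 1896 and 1707 with shSerpine2-1, 1679 and 1681 with shSerpine2-2, 2274 and 2318 with shSlpi-1 and 1288 and 1374 with shSlpi-2, against 2922 and 2842 in shRenilla. The 8 knockdown libraries all lay below both shRenilla libraries, shSlpi-1 the least and shSlpi-2 the most. On the log2 scale it changed by -0.73 with Serpine2 lowered (SE 0.05, limma adjusted p = 1.79e-07) and -0.72 with Slpi lowered (SE 0.05, adjusted p = 5.13e-08). Car9 also fell with each hairpin taken alone (-0.68 with shSerpine2-1, -0.78 with shSerpine2-2, -0.33 with shSlpi-1 and -1.11 with shSlpi-2). No difference was found between the knockdowns (-0.01, 95% interval -0.10 to 0.08, adjusted p = 0.918), but the Slpi value averages 2 unlike hairpins. Without the shSlpi-2 libraries the difference was -0.40 (adjusted p = 7.14e-08).

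Kdm3a, a histone H3 lysine 9 demethylase, fell with every hairpin. Located at chr6:71588972-71632990 (minus strand), it had 2158 and 2159 with shSerpine2-1, 2029 and 1916 with shSerpine2-2, 2131 and 2078 with shSlpi-1 and 1761 and 1719.5 with shSlpi-2, against 2548 and 2547 in shRenilla. The groups did not overlap, and the 2 shRenilla libraries nearly coincided. Kdm3a fell with Serpine2 lowered (log2 fold change -0.30, SE 0.04, limma adjusted p = 0.000219) and with Slpi lowered (-0.41, SE 0.04, adjusted p = 3.66e-06). Car9, Egln3 and Kdm3a were the 3 of 36 members that fell with all 4 hairpins, as did 2.1% of all genes tested. No member rose with all 4, while 1.95% of all genes tested did.

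**Figure D3:**
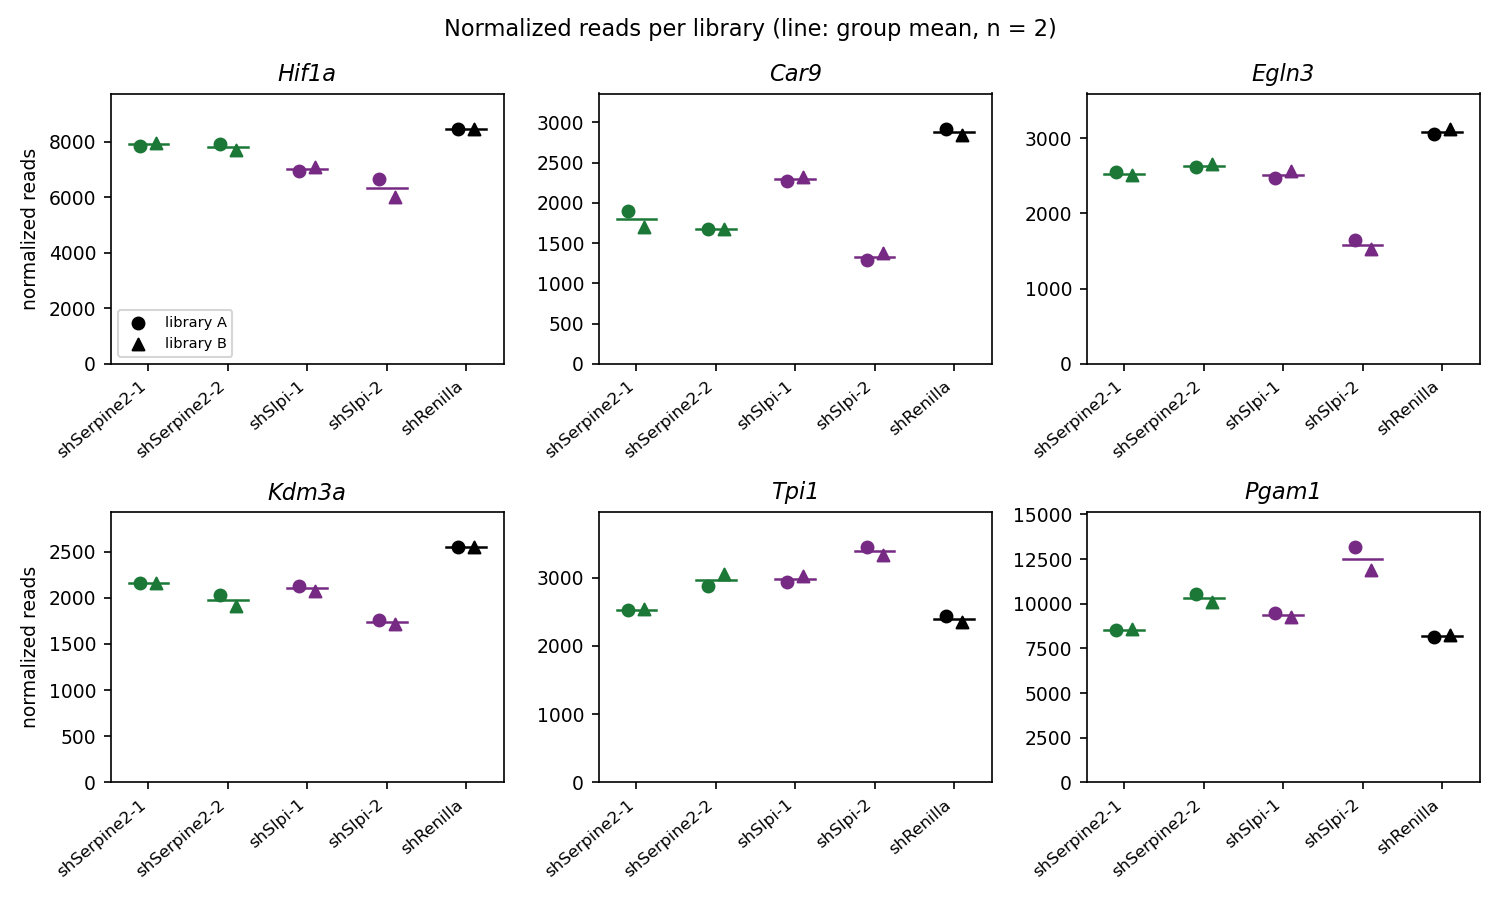
Normalized reads (vertical axes, each from 0) of Hif1a, Car9, Egln3, Kdm3a, Tpi1 and Pgam1 in each library, with groups on the horizontal axis, circles for library A, triangles for library B and lines for the mean of 2. The first 4 genes are highest in shRenilla; Pgam1 reaches 13159 and 11899 in shSlpi-2, against 8113 and 8255 in shRenilla.

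Genes of mitochondrial use and turnover fell too, to different extents with different hairpins. Pdk1 encodes the kinase that switches off pyruvate dehydrogenase and so keeps pyruvate out of the mitochondria. It had 1702 and 1739 with shSerpine2-1, 1806 and 1849 with shSerpine2-2, 1915 and 1966 with shSlpi-1 and 1629.6 and 1243 with shSlpi-2, against 2274 and 2194 in shRenilla. The knockdown and shRenilla libraries did not overlap, and library B of shSlpi-2 was the lowest. Pdk1 fell with Slpi lowered (log2 fold change -0.43, SE 0.07, limma adjusted p = 0.000323) and with Serpine2 lowered (-0.33, SE 0.07, adjusted p = 0.00458). The Serpine2 call was lost without shRenilla A (adjusted p = 0.0721), without shRenilla B (0.0582) and with no filter on low counts (0.055). Bnip3 and Bnip3l encode outer-membrane receptors that mark mitochondria for autophagy. Bnip3 had 662 and 698 with shSerpine2-1, 795 and 829 with shSerpine2-2, 958 and 959 with shSlpi-1 and 628 and 655 with shSlpi-2, against 943 and 951 in shRenilla. The shSlpi-1 libraries lay just above both shRenilla libraries and the other 6 knockdown libraries below them. Bnip3 fell with Serpine2 lowered (-0.35, SE 0.06, limma adjusted p = 0.000472) and with Slpi lowered (-0.27, SE 0.06, adjusted p = 0.00141), but shSlpi-1 alone gave 0.02 (adjusted p = 0.89) and shSlpi-2 alone -0.56 (adjusted p = 4.75e-06). The Slpi result for Bnip3 is therefore that of shSlpi-2, the group with high Rn45s. Bnip3l had 4803 and 4868 with shSerpine2-1, 4572 and 4610.0 with shSerpine2-2, 4779 and 4987 with shSlpi-1 and 3644 and 3587 with shSlpi-2, against 5315 and 5296 in shRenilla. All knockdown libraries were below shRenilla, and those of shSlpi-2 stood apart. Bnip3l fell with Slpi lowered (-0.34, SE 0.04, limma adjusted p = 7.82e-06) and with Serpine2 lowered (-0.17, SE 0.04, adjusted p = 0.00558), the Serpine2 call being lost without shRenilla A (0.0531) or B (0.0683). One annotated pseudogene carries the name of Bnip3l, so its reads are less certain.

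The remaining targets did not share 1 direction. Ndrg1, a stress-induced cytoplasmic protein linked to differentiation, had 2751 and 2886 with shSerpine2-1, 3555 and 3503 with shSerpine2-2, 3538 and 3547 with shSlpi-1 and 2667 and 2578 with shSlpi-2, against 3785 and 3746 in shRenilla. Libraries of shSerpine2-1 and shSlpi-2 were low, and those of shSerpine2-2 and shSlpi-1 were nearer to, but still below, shRenilla. Its log2 fold change was -0.26 with Serpine2 lowered (limma adjusted p = 0.000515) and -0.31 with Slpi lowered (adjusted p = 3.63e-05). Without both shSerpine2-1 libraries the first was -0.09 (adjusted p = 0.189), and without both shSlpi-2 libraries the second was -0.09 (adjusted p = 0.115). Plod2, a lysyl hydroxylase that prepares collagen for cross-linking, fell with Serpine2 lowered (log2 fold change -0.24, adjusted p = 0.00207, but 0.0539 without shRenilla B). With Slpi lowered its change of -0.13 (adjusted p = 0.0388) did not pass without shSlpi-1 A (adjusted p = 0.103), shSlpi-1 B (0.0523), shRenilla A (0.124) or shRenilla B (0.214). It also did not pass with no filter on low counts (0.0856), with quantile normalization (0.104), with upper-quartile scaling (0.0577) or in a fit of only the groups compared (0.104). The collagen prolyl 4-hydroxylase subunits P4ha1 and P4ha2 passed in neither comparison, with log2 fold changes of -0.07 and -0.01 with Serpine2 lowered and -0.02 and 0.13 with Slpi lowered. P4ha2 passed with Slpi lowered when both shSlpi-2 libraries were left out (0.25, adjusted p = 0.0227). Mxi1, a repressor that competes with Myc for its partner Max, fell with Slpi lowered (log2 fold change -0.22, adjusted p = 0.00399). That call was lost without shRenilla A (0.0652) and without both shSlpi-2 libraries (-0.07, adjusted p = 0.339). Its value with Serpine2 lowered was -0.13 (adjusted p = 0.0836; 0.0243 in a fit of only the groups compared). Ankrd37, a small ankyrin-repeat protein with 57.9 and 61.7 normalized reads in shRenilla, passed in neither comparison (-0.24, adjusted p = 0.317; -0.09, adjusted p = 0.714).

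Adm was the target that rose with either inhibitor lowered. It encodes adrenomedullin, a peptide that widens vessels and promotes their growth. Adm had 151 and 174 with shSerpine2-1, 183 and 169 with shSerpine2-2, 191 and 179 with shSlpi-1 and 149 and 151 with shSlpi-2, against 115 and 138 in shRenilla. All 8 knockdown libraries were above both shRenilla libraries. On the log2 scale it changed by 0.42 with Serpine2 lowered (SE 0.11, limma adjusted p = 0.0143) and 0.40 with Slpi lowered (SE 0.11, adjusted p = 0.0115). Both calls depended on shRenilla A. Without it the values were 0.29 (adjusted p = 0.188) and 0.27 (adjusted p = 0.182), and the first was also lost without shSerpine2-1 B (0.0548) or shSerpine2-2 A (0.0514). Ddit4 encodes REDD1, an inhibitor of mTORC1 raised by several stresses. It had 268 and 303 with shSerpine2-1, 387 and 399.7 with shSerpine2-2, 339.7 and 313 with shSlpi-1 and 482 and 559.6 with shSlpi-2, against 336 and 339 in shRenilla. The shSlpi-2 libraries were the highest, the shSerpine2-1 libraries the lowest, and shSlpi-1 overlapped shRenilla. Ddit4 rose by 0.28 with Slpi lowered (SE 0.08, limma adjusted p = 0.0148), which became -0.05 (adjusted p = 0.736) without both shSlpi-2 libraries and was lost without shRenilla A (0.0967) or B (0.0886).

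**Figure D4:**
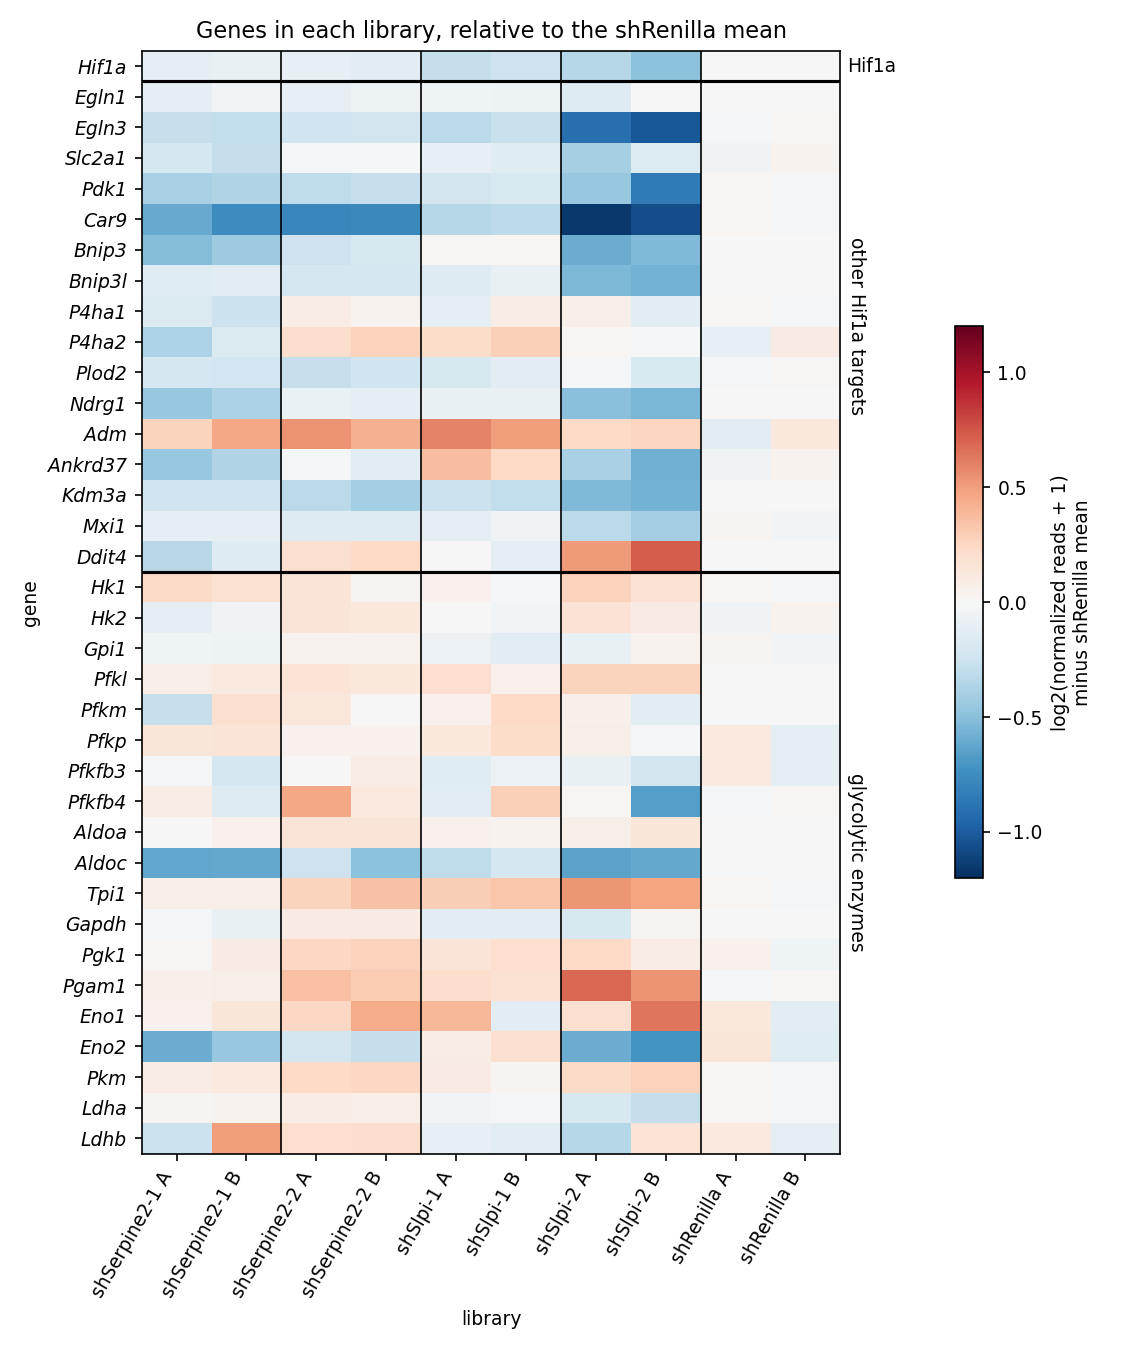
Difference of log2(normalized reads + 1) from the shRenilla mean (colour, blue lower and red higher) for 36 genes (rows, with Hif1a, other targets and enzymes divided by lines) in the 10 libraries (columns). Car9 and Egln3 are the darkest blue in shSlpi-2, where the log2 fold changes were -1.11 and -0.96, while Adm is red in all 8 knockdown libraries.

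At the ends of the pathway, the transcript of the glucose importer Slc2a1 fell slightly with Slpi lowered, and few reads came from Slc16a3, a lactate exporter. Slc2a1 encodes GLUT1, the main glucose importer of many tumour cells. It had 6364 and 6054 with shSerpine2-1, 7279.7 and 7248 with shSerpine2-2, 6875 and 6681 with shSlpi-1 and 5606 and 6593 with shSlpi-2, against 7176 and 7587 in shRenilla. Libraries of shSerpine2-2 overlapped shRenilla, and all others were lower. Slc2a1 fell with Slpi lowered (log2 fold change -0.20, SE 0.05, limma adjusted p = 0.00839, but -0.16 and 0.139 without shRenilla B). With Serpine2 lowered it was -0.14 (adjusted p = 0.0835; 0.00113 in a fit of only the groups compared). Slc16a3, the lactate exporter MCT4, had between 2.20 and 8.32 normalized reads in all 10 libraries, too few for the test, and it was the only member not tested.

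Several glycolytic enzymes had the highest levels of all members per unit length. In shRenilla, Ldha was highest with 13370.0 ± 337 normalized reads per kb of exon (SD, n = 2), followed by Pgam1 with 4129 ± 50.5, Pkm with 3023 ± 53.3, Pgk1 with 2518 ± 126 and Aldoa with 2506 ± 9.27. Pgk1 and Aldoa did not differ beyond their spread. Of the targets, Slc2a1 was highest with 2105 ± 83.01, and Car9 had 1251 ± 24.5. Some families had 1 prevailing isoenzyme. Per kb of exon, Ldha was 99.8% of Ldha and Ldhb together in shRenilla, Aldoa 96.7% of Aldoa and Aldoc, and Pfkl 61.5% of the 3 phosphofructokinase genes. The shares depend on which transcripts carry the reads, which these gene totals do not show.

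**Figure D5:**
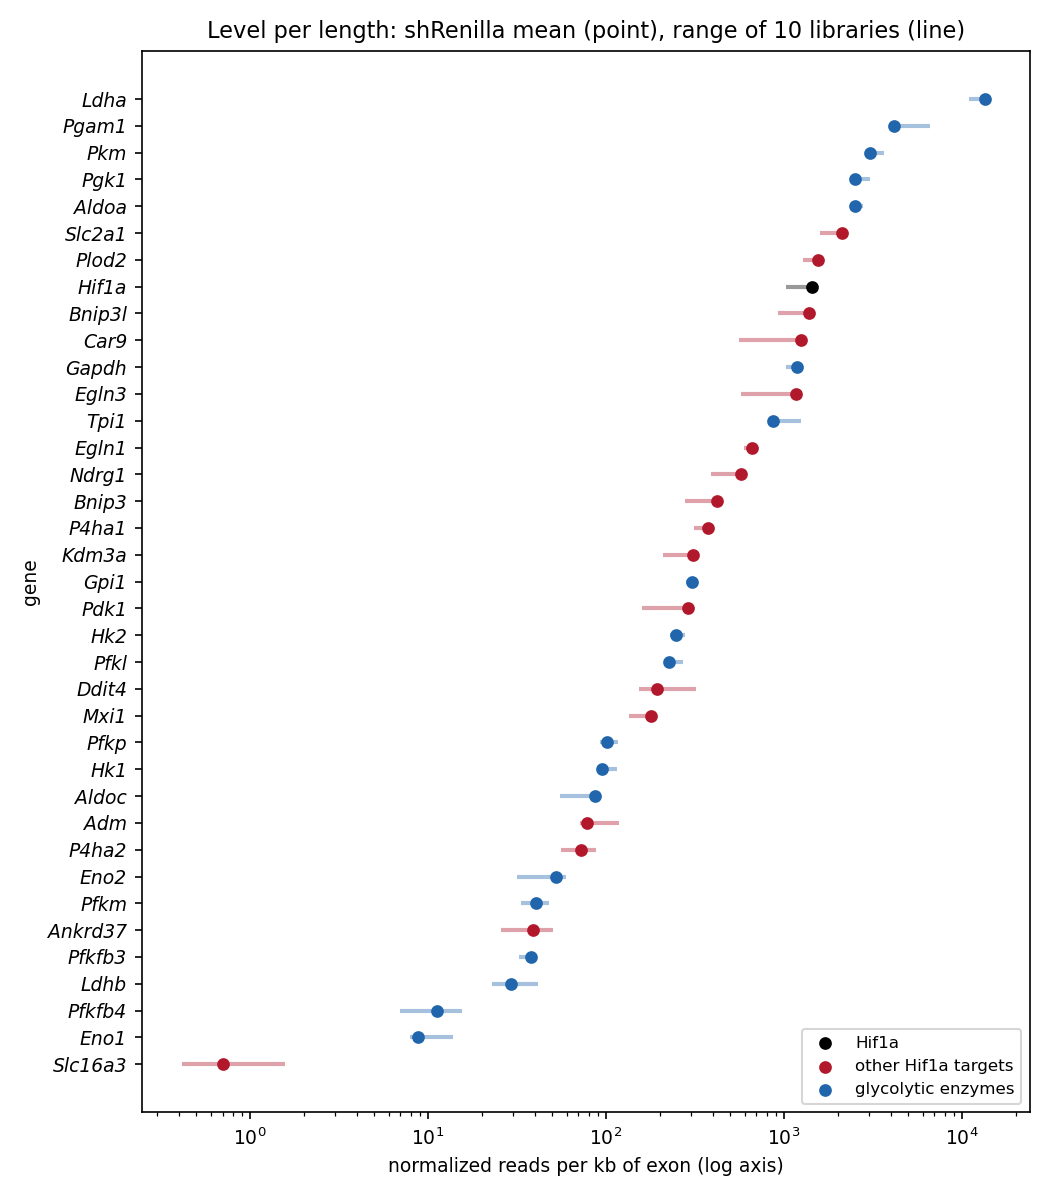
Normalized reads per kb of exon (horizontal log axis) for the 37 genes, with the shRenilla mean as a point and the range of all 10 libraries as a line, coloured by class. Ldha is highest at 13370.0, and Slc16a3 is lowest at 0.703.

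In the upper part of glycolysis little changed. Hk1 and Hk2 trap glucose as its phosphate, Gpi1 turns this into fructose phosphate, and phosphofructokinase (Pfkl, Pfkm, Pfkp) takes the committing step, while Pfkfb3 and Pfkfb4 set the level of its activator. With Serpine2 lowered none of these 8 genes passed the test, with log2 fold changes from -0.04 (Pfkfb3) to 0.15 (Hk1). In a fit of only the groups compared Hk1 (0.0248) and Pfkl (0.0208) did. With Slpi lowered 1 of the 8, Pfkl, passed. Hk1 also did without shSlpi-2 B (0.0448), and Pfkp without shRenilla A (0.0401) or both shSlpi-2 libraries (0.028). Pfkl had 1591 and 1635 with shSerpine2-1, 1683 and 1643 with shSerpine2-2, 1734 and 1561 with shSlpi-1 and 1808 and 1811 with shSlpi-2, against 1509.7 and 1499.6 in shRenilla. All 8 knockdown libraries were above shRenilla, by little in shSlpi-1 B. It rose by 0.20 (SE 0.05, limma adjusted p = 0.00627), which was lost without shRenilla B (0.0636) and without both shSlpi-2 libraries (0.13, adjusted p = 0.0683). Aldoa, the main aldolase, lay at 7340.3 to 8126 in the knockdown libraries, against 7315 and 7276 in shRenilla. These ranges did not overlap, yet the log2 fold changes of 0.09 and 0.08 did not pass (limma adjusted p = 0.105 and 0.136). With Serpine2 lowered Aldoa rose in a fit of only the groups compared (adjusted p = 0.0137) and without both shSerpine2-1 libraries (0.0339), and with Slpi lowered it rose with quantile normalization (0.0357) and without shSlpi-2 A (0.0181).

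From triose phosphate down, 4 enzyme genes rose with either inhibitor lowered, averaged over its hairpins. With shSerpine2-1 alone 0 enzymes rose. For shSerpine2-1 and then shSerpine2-2, the log2 fold changes were 0.08 and 0.31 for Tpi1 and 0.06 and 0.33 for Pgam1. They were 0.06 and 0.26 for Pgk1 and 0.10 and 0.24 for Pkm. All 4 genes differed between these 2 hairpins when the hairpins were compared directly. Tpi1, triosephosphate isomerase, lies at chr6:124810586-124814296 (minus strand). It had 2531 and 2532 with shSerpine2-1, 2878 and 3056 with shSerpine2-2, 2928 and 3020.5 with shSlpi-1 and 3443 and 3332 with shSlpi-2, against 2437 and 2348 in shRenilla. All knockdown libraries exceeded both shRenilla libraries, those of shSlpi-2 most. Tpi1 rose by 0.41 with Slpi lowered (SE 0.04, limma adjusted p = 3.6e-06) and by 0.20 with Serpine2 lowered (SE 0.04, adjusted p = 0.00495; lost without shRenilla B, 0.103). Pgam1, phosphoglycerate mutase, lies at chr19:41911923-41918660 (plus strand). It had 8516 and 8599 with shSerpine2-1, 10527 and 10078 with shSerpine2-2, 9463 and 9274 with shSlpi-1 and 13159 and 11899 with shSlpi-2, against 8113 and 8255 in shRenilla. As for Tpi1, the shSlpi-2 libraries were the highest and the shRenilla libraries the lowest. Pgam1 rose by 0.40 with Slpi lowered (SE 0.04, limma adjusted p = 3.75e-06) and by 0.20 with Serpine2 lowered (SE 0.04, adjusted p = 0.0044; 0.0593 without shRenilla A and 0.052 without shRenilla B).

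Pkm and Pgk1, the ATP-forming steps, rose less. Pkm, pyruvate kinase, had 16109 and 16400.0 with shSerpine2-1, 17851 and 17976 with shSerpine2-2, 16138 and 15462 with shSlpi-1 and 17762 and 18264 with shSlpi-2, against 15306 and 14929 in shRenilla. No knockdown library was below shRenilla, though shSlpi-1 came close. Its log2 fold change was 0.17 with Serpine2 lowered (limma adjusted p = 0.00427) and 0.16 with Slpi lowered (adjusted p = 0.00445). Both were lost without shRenilla B (0.0847 and 0.0674), and the second also without both shSlpi-2 libraries (0.06, adjusted p = 0.168). Pgk1, phosphoglycerate kinase, had 5701 and 6065 with shSerpine2-1, 6723 and 6838 with shSerpine2-2, 6296 and 6510.4 with shSlpi-1 and 6686 and 6024 with shSlpi-2, against 5850.3 and 5452 in shRenilla. Library A of shSerpine2-1 lay between the 2 shRenilla libraries. Pgk1 rose by 0.16 with Serpine2 lowered (limma adjusted p = 0.0266) and by 0.17 with Slpi lowered (adjusted p = 0.0104). Without shRenilla B these were 0.11 (adjusted p = 0.327) and 0.12 (adjusted p = 0.189). The Serpine2 call was also lost without shSerpine2-1 B (0.109), shSerpine2-2 A (0.06) or shSerpine2-2 B (0.0798) and with no filter on low counts (0.104). Gapdh, which stands between Tpi1 and Pgk1, passed in neither comparison (0.02, adjusted p = 0.795; -0.10, adjusted p = 0.14). With Slpi lowered it fell without shSlpi-2 B (-0.16, adjusted p = 0.000715) and without both shSlpi-2 libraries (-0.13, adjusted p = 0.0119). Pgam1, Pgk1, Gapdh, Aldoa and Ldha each have 2 annotated pseudogenes named after them. Copies under other names were not counted, so these numbers are minimum ones, and the other enzymes may have copies too. How reads that match several copies were counted is not given in the sources used here, so the values carry that uncertainty.

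Ldha, the subunit that turns pyruvate into lactate, did not follow Pkm. It had 45358 and 45634 with shSerpine2-1, 47146 and 46788 with shSerpine2-2, 43315 and 43798 with shSlpi-1 and 38727 and 36274 with shSlpi-2, against 45051 and 43472 in shRenilla. The shSlpi-2 libraries were the lowest, and the 4 Serpine2 libraries lay above all others. With Slpi lowered Ldha fell, with a log2 fold change of -0.13 (SE 0.04, limma adjusted p = 0.021), but without both shSlpi-2 libraries this was -0.02 (adjusted p = 0.635), and it was lost without shSlpi-1 A (0.0619), shRenilla A (0.177) or shRenilla B (0.0546) and in a fit of only the groups compared (0.0992). With Serpine2 lowered its value was 0.06 (95% interval -0.02 to 0.15, adjusted p = 0.301; 0.0471 in a fit of only the groups compared). Ldhb, with 35.8 to 65.0 normalized reads over the 10 libraries, passed in neither comparison.

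The enzyme genes that fell with Serpine2 lowered were Aldoc and Eno2, isoenzymes best known from the nervous system. Aldoc, at chr11:78322968-78327781 (plus strand), had 183 and 183 with shSerpine2-1, 237 and 199.9 with shSerpine2-2, 227 and 243 with shSlpi-1 and 179.8 and 183 with shSlpi-2, against 281 and 281 in shRenilla. Every knockdown library was below both shRenilla libraries. Aldoc fell with Serpine2 lowered (log2 fold change -0.49, SE 0.10, limma adjusted p = 0.00195) and with Slpi lowered (-0.44, SE 0.10, adjusted p = 0.00195), the second becoming -0.26 (adjusted p = 0.0818) without both shSlpi-2 libraries. Eno2, neuronal enolase, had 163 and 179 with shSerpine2-1, 212 and 202 with shSerpine2-2, 262 and 282 with shSlpi-1 and 162 and 149.6 with shSlpi-2, against 272 and 223 in shRenilla. The shSlpi-1 libraries overlapped shRenilla and the other 6 were lower. Eno2 fell with Serpine2 lowered (-0.39, SE 0.10, limma adjusted p = 0.0148), but not without shRenilla A (-0.24, adjusted p = 0.236) or without both shSerpine2-1 libraries (-0.25, adjusted p = 0.149). With Slpi lowered its value was -0.26 (adjusted p = 0.0691), which passed with scaling to the library total (0.0425) and without shSlpi-2 A (0.0352) or shRenilla B (0.0408). The entry named Eno1 held only 42.7 to 73.9 normalized reads. The entry Gm5506, whose RefSeq symbol is Eno1b, held 13352 to 15835, and the table does not show whether these are reads of the main enolase transcript assigned to the copy. The Eno1 values are uncertain for that reason. Neither entry passed in either comparison (Gm5506 0.06, adjusted p = 0.271, and 0.08, adjusted p = 0.12). Taken alone, shSerpine2-2 (0.14, limma adjusted p = 0.0373) and shSlpi-2 (0.18, adjusted p = 0.00568) raised Gm5506. It did not pass with shSerpine2-1 (-0.01, adjusted p = 0.942) or shSlpi-1 (-0.01, adjusted p = 0.918).

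Set directly against each other, the Serpine2 and Slpi knockdowns differed in 7 of 36 members, 4 higher and 3 lower with Serpine2 lowered, beside 10.3% and 7.21% of all genes tested (17.5% in all). Hif1a, Egln3, Ldha and Bnip3l were higher with Serpine2 lowered, by 0.24, 0.37, 0.19 and 0.17. Ddit4, Tpi1 and Pgam1 were lower, with differences of -0.30, -0.21 and -0.21 (limma adjusted p from 6.65e-06 for Egln3 to 0.00729 for Ddit4). The 4 Serpine2 libraries did not overlap the 4 Slpi libraries for 3 members, Hif1a and Ldha being higher and Plod2 lower, beside 5.85% and 2.98% of all genes tested. Several of these differences depended on shSlpi-2. Without its 2 libraries, 3 of the 7 calls were kept, Egln3 was lost, and Bnip3l (-0.05, adjusted p = 0.306), Ddit4 (0.04, adjusted p = 0.787) and Pgam1 (0.00, adjusted p = 0.959) changed sign. Without both shSerpine2-1 libraries 3 of the 7 were kept as well. Bnip3l (0.13, adjusted p = 0.08), Ddit4 (-0.07, adjusted p = 0.677), Tpi1 (-0.10, adjusted p = 0.224) and Pgam1 (-0.07, adjusted p = 0.387) were then lost, and Ddit4 was also lost without shSerpine2-1 A (-0.25, adjusted p = 0.05). Without shSlpi-2 B, 7 members were higher with Serpine2 lowered instead of 4.

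Taken one at a time, the hairpins differed in how far the members moved. With shSerpine2-1, 0 members rose and 10 fell, beside 5.09% and 5.38% of all genes. With shSerpine2-2, 6 rose and 8 fell, beside 14.2% and 13.4%. With shSlpi-1, 4 rose and 5 fell, beside 7.65% and 9.88%, and with shSlpi-2, 7 rose and 13 fell, beside 20.4% and 21.9%. In either direction, 10.5% of all genes changed with shSerpine2-1, 27.5% with shSerpine2-2, 17.5% with shSlpi-1 and 42.4% with shSlpi-2. When 1 library of the groups compared was left out, 5 or 6 members changed with shSerpine2-1, 9 or 10 with shSerpine2-2, 5 or 6 with shSlpi-1 and 18 to 23 with shSlpi-2. The hairpins of a target were also compared directly. Between shSerpine2-1 and shSerpine2-2, 0 members were higher and 11 lower with shSerpine2-1 (6.98% and 7.69% of all genes, 14.7% in all). P4ha2 had 349 and 398 with shSerpine2-1 and 522 and 545 with shSerpine2-2, beside 420.4 and 483 in shRenilla. The 2 hairpins lay on opposite sides of the control, as they also did for Ddit4. The differences were -0.52 for P4ha2 (limma adjusted p = 0.00151), -0.46 for Ddit4 (adjusted p = 0.00516) and -0.32 for Ndrg1 (adjusted p = 0.00046). Leaving out 1 library of either group reduced the 11 calls to 3 or 4.

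Between shSlpi-1 and shSlpi-2, 14 members were higher and 5 lower with shSlpi-1, beside 13.7% and 12.3% of all genes (26.1% in all). Of the 16 targets, 10 were higher with shSlpi-1 and 1, Ddit4, was lower. Eno2 differed by 0.80 (limma adjusted p = 0.000199), Ankrd37 by 0.79 (adjusted p = 0.0063) and Car9 by 0.79 (adjusted p = 2.21e-07). In the other direction were Ddit4 at -0.67 (adjusted p = 0.000147), Pgam1 at -0.42 (adjusted p = 3.06e-05) and Hk1 at -0.21 (adjusted p = 0.0305). Ankrd37 had 77.6 and 70.8 with shSlpi-1 and 45.4 and 39.8 with shSlpi-2, beside 57.9 and 61.7 in shRenilla. Hk1 had 839 and 803 with shSlpi-1 and 983 and 918 with shSlpi-2, beside 823 and 801 in shRenilla. The libraries of shSlpi-2 with the deepest falls in the targets were also those with 6.88% and 6.91% Rn45s reads and the highest summed epithelial markers, 31090.0 and 31020.0, whose part in the result was not tested.

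Genes around the pathway, taken from lists of other known members, gave a mixed picture. Of 35 tested hypoxia genes outside the 37, 5 rose and 5 fell with Serpine2 lowered (median 0.01) and 7 rose and 9 fell with Slpi lowered (median -0.03). These shares are near those of all genes. Ero1l, an oxidase of protein folding in the endoplasmic reticulum, averaged 8222 with shSerpine2-1, 7887 with shSerpine2-2, 8805 with shSlpi-1 and 7212 with shSlpi-2, against 10633 in shRenilla. Its log2 fold changes were -0.40 and -0.42 (limma adjusted p = 7.62e-06 and 1.03e-06). The secreted hormone Stc1 (-0.50 and -0.67) and Errfi1, a feedback inhibitor of the EGF receptor (-0.26 and -0.36), fell as well. Bhlhe40, a transcriptional repressor, rose by 0.31 and 0.59. Vegfa, the endothelial growth factor, averaged 629 and 818 with the Serpine2 hairpins and 734 and 509.8 with the Slpi hairpins, against 805 in shRenilla. It fell with Slpi lowered (-0.39, limma adjusted p = 7.44e-05). Vegfa was 0.23 higher with Serpine2 lowered than with Slpi lowered (limma adjusted p = 0.00376). The hairpins were unlike, since shSlpi-2 was the lowest while shSlpi-1 lay above shSerpine2-1.

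Of 27 tested genes of glucose metabolism outside the core enzymes, 8 rose and 0 fell with Serpine2 lowered (median 0.11). With Slpi lowered 6 rose and 3 fell (median 0.10). Among all genes tested, 10.7% rose and 10.8% fell with Serpine2 lowered, and 16.5% rose and 18.3% fell with Slpi lowered. Pdp2, the phosphatase that reactivates pyruvate dehydrogenase and so opposes Pdk1, rose by 0.30 and 0.28 (limma adjusted p = 0.00385 and 0.00278). Pdhx, a structural part of that complex, rose by 0.29 and 0.28. Other parts of the complex did not share this direction. With Slpi lowered Dld (-0.16, limma adjusted p = 0.0145) and Dlat (-0.14, adjusted p = 0.0309) fell, and with Serpine2 lowered Pdhb rose (0.15, adjusted p = 0.0433). Bpgm, which had the smallest p of this list with Slpi lowered, rose by 0.32 and 0.49 (limma adjusted p = 0.0184 and 0.000503). Slc2a3, the glucose importer GLUT3, rose by 1.17 and 1.18, but its group means were 16.4 to 29.2 in the knockdowns and 9.12 in shRenilla. Pck2, which makes phosphoenolpyruvate in mitochondria, rose by 0.50 with Serpine2 lowered (adjusted p = 0.000756). Of the 8 genes of the pentose phosphate pathway, which draws on glucose 6-phosphate, 3 rose and 0 fell with Serpine2 lowered. With Slpi lowered 5 rose and 1 fell. The same shares of all genes stand beside these counts, 10.7% up and 10.8% down, then 16.5% up and 18.3% down. Tkt, transketolase, rose by 0.27 and 0.31, and Pgd, which yields NADPH, by 0.23 and 0.16. With Slpi lowered, Rpia rose by 0.56 and Rpe fell by 0.21; both act on ribulose 5-phosphate.

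Of 10 tested regulators that can raise or restrain glycolytic genes, 0 rose in either comparison. With Serpine2 lowered 1 fell, beside 10.8% of all genes tested, and with Slpi lowered 4 fell, beside 18.3%. The Serpine2 count is near the share of all genes. Rises made up 10.7% and 16.5% of all genes tested. Myc averaged 11127 with shSerpine2-1, 10759.7 with shSerpine2-2, 10006 with shSlpi-1 and 9339.8 with shSlpi-2, against 12544 in shRenilla. Its log2 fold change was -0.20 with Serpine2 lowered (limma adjusted p = 0.046) and -0.38 with Slpi lowered (adjusted p = 0.000353). With Slpi lowered, Mtor, the growth-control kinase (-0.28), and Prkaa1, a catalytic subunit of the energy sensor AMPK (-0.26), were among the others that fell.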

How the data were processed

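The authors deposited 1 table of log2 values for 10 libraries. Aligning, counting and normalizing by the authors involved Bowtie2, HTSeq and DESeq on build mm10, per the submitters' processing notes. Not given in the sources used here are versions, settings, strand use and the treatment of reads matching several copies. The values deposited by the authors start at a floor of 6.733366499 and have the form of DESeq's variance-stabilizing transformation. This was inverted. The resulting normalized counts were whole multiples of 1 read in 100% of values within 0.01 reads. No label states the transformation.

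limma 3.58.1 (R 4.3.3; eBayes with trend) was fitted to log2(normalized reads + 1) of 12299 genes with a mean of at least 10, as 5 group means over all 10 libraries. Two-sided p-values got a Benjamini-Hochberg adjustment over all genes tested. Fold changes on this scale understate changes of weakly expressed genes. Intervals are 95% intervals of the same fit. All groups share 1 estimate of the spread, which is too small for shSlpi-2 and too large for the rest.

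Exon lengths came from GENCODE M21 (GRCm38) and promoters from RefSeq (GRCm38.p6). The members and lists were chosen with earlier results of these data known. Values in every library are given for Hif1a, for up to 6 changed members with the largest rise and up to 6 with the largest fall per main comparison, and for up to 3 each way per hairpin pair. For some others they are given as well, and of each list up to 4 changed genes with the smallest p qualified to be named. Alternatives covered pseudocount, filter, scaling, transformation, the groups fitted, libraries left out, a replicate block and hairpins as units. Some genes of the lists are counted but not reported here by name.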

Additional observations from a re-analysis of the deposited data

Results flagged for a closer look

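The members listed here differed between the 2 hairpins of a target under the same contrast with shRenilla, by limma's test of the difference itself, adjusted over all genes. Values are log2 differences, the first hairpin minus the second.

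Between shSerpine2-1 and shSerpine2-2, 11 members differed, all lower with shSerpine2-1, beside 7.69% of all genes tested. The 6 targets were P4ha2 (-0.52, adjusted p = 0.00151), Ddit4 (-0.46, adjusted p = 0.00516), Ndrg1 (-0.32, adjusted p = 0.00046), P4ha1 (-0.28, adjusted p = 0.0184), Bnip3 (-0.26, adjusted p = 0.0154) and Slc2a1 (-0.23, adjusted p = 0.0227). The 5 enzymes were Pgam1 (-0.27, adjusted p = 0.00266), Tpi1 (-0.23, adjusted p = 0.00737), Hk2 (-0.21, adjusted p = 0.021), Pgk1 (-0.21, adjusted p = 0.0222) and Pkm (-0.14, adjusted p = 0.0437).

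Between shSlpi-1 and shSlpi-2, 19 members differed. Those higher with shSlpi-1 were Eno2 (0.80, adjusted p = 0.000199), Ankrd37 (0.79, adjusted p = 0.0063), Car9 (0.79, adjusted p = 2.21e-07), Egln3 (0.66, adjusted p = 3.49e-07), Bnip3 (0.58, adjusted p = 1.51e-05), Pdk1 (0.45, adjusted p = 0.00133), Ndrg1 (0.43, adjusted p = 1.3e-05), Bnip3l (0.43, adjusted p = 8.27e-06), Aldoc (0.37, adjusted p = 0.0212), Mxi1 (0.29, adjusted p = 0.00253), Kdm3a (0.27, adjusted p = 0.00118), P4ha2 (0.25, adjusted p = 0.0496), Ldha (0.22, adjusted p = 0.0036) and Hif1a (0.15, adjusted p = 0.0378). Those lower with shSlpi-1 were Ddit4 (-0.67, adjusted p = 0.000147), Pgam1 (-0.42, adjusted p = 3.06e-05), Hk1 (-0.21, adjusted p = 0.0305), Pkm (-0.19, adjusted p = 0.00542) and Tpi1 (-0.19, adjusted p = 0.0128). The part of the Rn45s share and of the wider spread between the shSlpi-2 libraries in these differences was not tested.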

How the results depend on the processing

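Calls of single members against shRenilla that were lost under an alternative other than hairpins as units are given beside them in the report, while calls gained are given there in part. Most counts moved little with pseudocount, scaling and transformation, and more with the libraries and the unit of replication. With the hairpin as the unit, 0 members rose or fell in any of the 3 main comparisons, where the report has 5 up and 10 down (Serpine2), 7 up and 13 down (Slpi) and 4 up and 3 down (Serpine2 against Slpi). With only the compared groups in the fit, 9 members rose with Serpine2 lowered, and 16 changed with shSerpine2-1, 15 with shSlpi-1 and 12 between the Slpi hairpins, against 10, 9 and 19. Between shSerpine2-1 and shSerpine2-2, 7 differed with no filter on low counts, against 11. Against 3 members lower with Serpine2 than with Slpi lowered, there were 8 without both shSlpi-2 libraries and 0 without both shSerpine2-1 libraries.

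The median of the enzymes with Serpine2 lowered, 0.10, was 0.063 on the deposited transformed values and 0.14 without both shSerpine2-1 libraries. That of the targets, -0.20, was -0.17 with no filter, -0.16 with quantile normalization, -0.15 on the transformed values and -0.12 without both shSerpine2-1 libraries. With Slpi lowered the enzyme median of 0.06 was 0.025 with scaling to the library total, and the target median of -0.21 was -0.18 with quantile normalization, -0.24 with scaling to the library total and -0.082 without both shSlpi-2 libraries. Between the knockdowns the enzyme median of 0.0034 was 0.049 without both shSlpi-2 and 0.077 without both shSerpine2-1 libraries, and the target median of 0.0080 was -0.067 and 0.073. With the longest transcript as length, shares in shRenilla were 41.5% for Hk1 (27.8% with all exons), 66.6% for Pfkl, 97.9% for Aldoa, 20.9% for Eno1, 99.9% for Ldha, 72.0% for P4ha1 and 24.9% for Bnip3.

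Leaving out 1 library of the groups compared at a time gave 1 to 5 members up and 7 to 10 down with Serpine2 lowered, 3 to 8 up and 10 to 15 down with Slpi lowered, and 4 to 7 up and 2 to 4 down between the knockdowns. With Serpine2 lowered and without both shSlpi-2 libraries, 7 enzymes rose and 10 targets fell, beside 1969 rises and 1945 falls among all genes. It gave 5 to 6 changed with shSerpine2-1, 9 to 10 with shSerpine2-2, 5 to 6 with shSlpi-1, 18 to 23 with shSlpi-2, 3 to 4 between the Serpine2 hairpins and 14 to 21 between the Slpi hairpins. Without both shSlpi-2 libraries 7 values changed sign, namely Bnip3 (0.018, adjusted p = 0.869) and Ddit4 (-0.050, 0.736) with Slpi lowered and, between the knockdowns, Pdk1 (-0.13, 0.0251), Bnip3l (-0.051, 0.306), Ndrg1 (-0.17, 0.00137), Ddit4 (0.038, 0.787) and Pgam1 (0.0031, 0.959). The cause was not tested.

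With the library letter as a replicate block, 5 members rose and 10 fell with Serpine2 lowered, 7 rose and 13 fell with Slpi lowered, and 4 were higher and 3 lower between the knockdowns, and all of the calls were kept. The deviations of same-lettered libraries correlated at -0.07 to 0.07 over 10 pairs of groups, so the letters were not taken as a pairing. Depth limits Slc16a3, Eno1, Ldhb, Pfkfb4 and Ankrd37 most, which had under 80 normalized reads in every library.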
